A study of Mus musculus with 32 samples.

Results

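The 10 genes described here encode the machinery with which B cells present antigen on MHC class II: H2-Aa, H2-Ab1, H2-Eb1, H2-Eb2, H2-DMa, H2-DMb2, H2-Oa, H2-Ob, Cd74 and Ciita. They were chosen by symbol, as the probes whose gene name on the array is one of these, and make up 10 of 35019 gene names. They are read by 13 of the 55681 non-control probes, with 2 probes for H2-Ab1 and 3 for H2-Ob. The files place the H2 probes on chromosome 17 (mm9, 34232033 for H2-Oa to 34476993 for H2-Eb2), Cd74 on chromosome 18 and Ciita on chromosome 16. An MHC class II molecule is a pair of an alpha and a beta chain that shows peptides from the endosome to helper T cells. The invariant chain Cd74 holds the groove closed until the compartment is reached, H2-DM exchanges its last fragment for peptide, and H2-DO restrains H2-DM, mostly in B cells. Ciita is the coactivator on which transcription of these genes depends, and it acts through factors bound to short boxes in their promoters.

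The array study set 9 ATM-deficient mouse B cell lymphoma lines against normal B cells and followed 2 further lines under a BTK inhibitor. The lymphoma lines (1001, 1004, 1007, 1010, 1013, 1016, 1019, 1036 and 1039) were labelled as spleen cells of the strain ATMKO.CD3epsilonKO. Normal splenic B cells came from ATMKO.CD3epsilonKO and ATMWT.CD3epsilonKO mice, so by their labels both genotypes and the lymphomas share the loss of CD3 epsilon. They were untreated (1 sample per genotype) or stimulated in culture with 15 ug/ml goat antibody to mouse IgM, for 6 h in ATMWT and for 3, 6 and 24 h in ATMKO. The ATMWT time follows the sample title, since its treatment text gives 6 h in one line and 3 h in another. Germinal centre (GC) B cells came from sheep red blood cell-immunised mice labelled ATMWT, with no CD3epsilonKO in the label. GC B cells were 1 sample here, because their 3 arrays are described as 1 biological and 2 technical repeats without saying which is which. All these RNAs (Cy5) were hybridised against a reference pool (Cy3) that, per the labels, was made up from lymphomas, GC B cells and both untreated and stimulated B cells from the spleen, and a level below is a log2 ratio to that pool. Lines 178119 and 28545, also ATMKO.CD3epsilonKO, received 100 nM PCI-32765, which blocks BTK, a kinase that relays signals of the B cell receptor, for 1, 3, 6 or 24 h (Cy5), against vehicle (DMSO) for the same time (Cy3). No array had its dyes swapped, ages were not given in the sources used here, and nothing in the labels says that samples of a group came from separate animals, so p-values measure the spread between these samples.

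The promoters show what most of these genes share in sequence. RefSeq windows from 250 bases before the start of transcription were at hand for 7 of the 10 genes, none of them H2-Ab1, Cd74 or Ciita. The stretches below lie on chromosome 17 of GRCm38.p6 and are printed 5′ to 3′ on the gene's strand, with GCAAC (inside the X box, which RFX binds) and GATTGG (inside the Y box, which NF-Y binds) in capitals.
H2-Aa (chr17:34287847-34287914, minus strand): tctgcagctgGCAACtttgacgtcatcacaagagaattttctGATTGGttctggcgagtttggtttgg
H2-Eb1 (chr17:34305766-34305832, plus strand): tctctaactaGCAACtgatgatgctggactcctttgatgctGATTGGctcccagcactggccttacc
H2-Eb2 (chr17:34325533-34325599, plus strand): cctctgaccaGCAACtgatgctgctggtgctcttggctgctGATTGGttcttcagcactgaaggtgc
H2-Oa (chr17:34092293-34092360, plus strand): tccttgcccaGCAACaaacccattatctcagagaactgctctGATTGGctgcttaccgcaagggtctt
H2-Ob (chr17:34238808-34238872, plus strand): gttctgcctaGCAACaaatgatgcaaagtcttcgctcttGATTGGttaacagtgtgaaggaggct
H2-DMb2 (chr17:34145116-34145183, plus strand): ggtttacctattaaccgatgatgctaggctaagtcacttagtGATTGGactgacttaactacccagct

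The first 5 of these carry GCAAC followed by GATTGG on the same strand, with 24 to 27 bases between. A spacing of 20 to 30 bases, set after the members' sequences had been seen, was found in 5 of 8 member windows and in 32 of all 32851 windows (0.0974%). GATTGG alone, on either strand, was in 14.6% of windows, and GCAAC alone in 29.9%. H2-DMb2 carries GATTGG but not GCAAC at that spacing. Of the 2 windows of H2-DMa, 1 has GATTGG and neither has the pair. A match is a string of letters and says nothing about whether a factor sits there.

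Signal quality was even except on 2 arrays. Over 22 pool arrays, between 49.9% and 60.7% of spots were well above background in Cy5. The first GC B array had 29.4% and the first array of line 1039 had 21.9%, and their pool channels correlated with the others at a median r of 0.0561 and 0.505, against 0.98 to 0.996. Both stay in the main values, and results are also given without them. The drug arrays had 45.6% to 53%, except the 24 h array of line 28545 with 85.5%. Atm, which checks the genotype, lay between -1.54 and -0.34 in the 13 ATMKO samples and between 0.42 and 0.65 in the 3 samples with ATM intact. Cd3e, a second check, did not follow the labels. It was lowest in GC B cells (-1.84), which have no CD3epsilonKO in the label. It lay between -0.64 and 1.15 in the 13 ATMKO samples, and at 0.98 and -0.14 in the ATMWT splenic samples. The lymphomas were above GC B cells by 2.04 (SE 0.45, limma adjusted p = 0.011), and the reason was not tested. The B cell markers Ms4a1, Cd79a and Cd79b were above background on all 22 pool arrays and all 8 drug arrays. Of the 416 member spots, 1 was saturated, H2-Eb1 in line 178119 at 1 h. On the 8 drug arrays the brightest members were read from the scanner's low scan, scaled up. This held for H2-Ab1 and Cd74 in both channels of 8 arrays, and for H2-Eb1 in both channels of 7. H2-Aa was so read on 8 arrays in Cy5 but on 1 in Cy3, and the effect on ratios was not tested.

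All 10 class II genes were lower in the lymphoma lines than in untreated splenic B cells, by 1.39-fold for Ciita to 10.8-fold for H2-Oa. By limma with Benjamini-Hochberg adjustment over all genes, 10 of 10 passed as lower, where 21.1% of all genes tested passed as lower. The median difference of the 10 was -2.11 on the log2 scale, against -0.01 over all genes tested. In 9 of 10 genes every lymphoma line lay below both untreated samples, and the groups did not overlap in 44.2% of all genes either. The exception was Cd74.

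**Figure D1:**
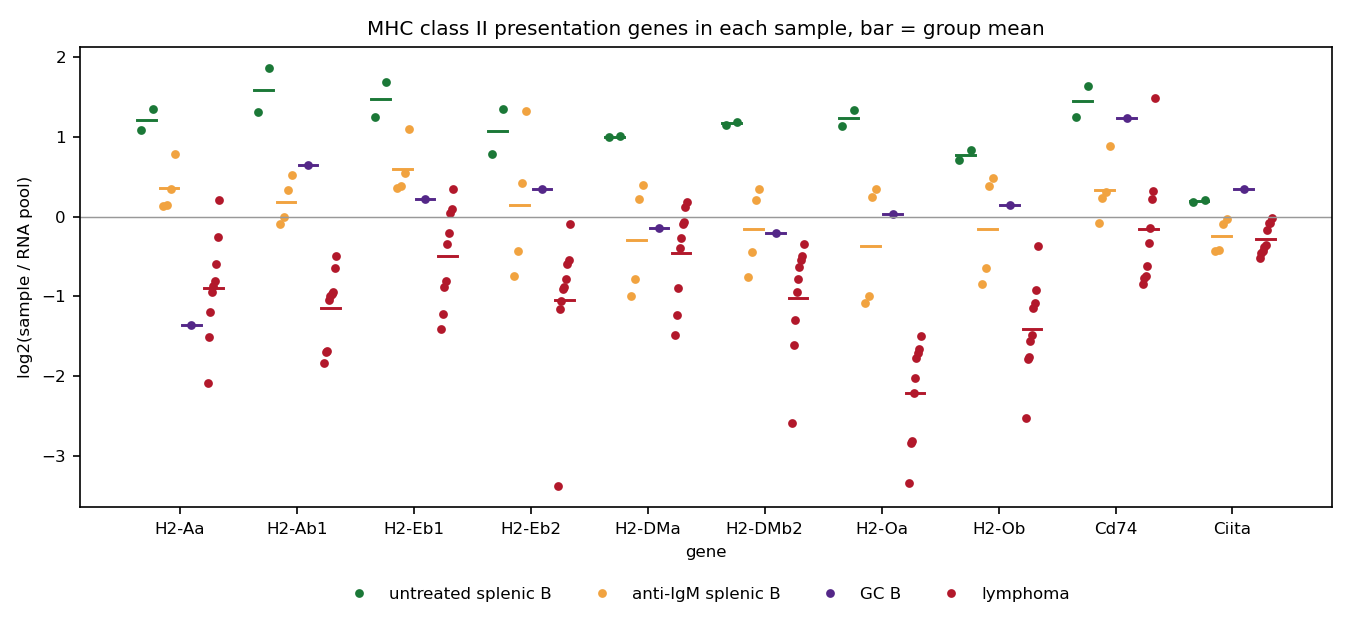
Level of each class II gene as log2 ratio to the RNA pool (vertical axis), 1 point per sample, in untreated splenic B cells (2 samples), anti-IgM-stimulated splenic B cells (4), GC B cells (1) and lymphoma lines (9), with a bar at the group mean. The lymphoma points of H2-Oa all lie at or below -1.5, and the single lymphoma point above 1 is Cd74 in line 1004.

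The classical chains form the surface molecules I-A (H2-Aa with H2-Ab1) and I-E (with H2-Eb1 as its beta chain). H2-Ab1 was at 1.31 in ATMWT and 1.86 in ATMKO untreated B cells, and ran from -1.83 through a median of -1 to -0.49 over the 9 lines. Every line was thus more than 1 log2 unit below the lower untreated sample, and the difference was -2.73 (SE 0.32, limma adjusted p = 1.55e-05), a 6.62-fold lower level. H2-Aa was at 1.08 and 1.34 in the untreated samples and from -2.09 through -0.87 to 0.21 in the lines, a difference of -2.10 (SE 0.41, limma adjusted p = 0.0011). H2-Eb1 was at 1.25 and 1.69 against -1.41, -0.35 and 0.35 (lowest, median, highest), a difference of -1.96 (SE 0.39, limma adjusted p = 0.00129). In both genes all 9 lines lay below both untreated samples. H2-Eb2, a second I-E-type beta chain gene, was at 0.78 and 1.35 in untreated cells and from -3.38 through -0.88 to -0.10 in the lines, with a difference of -2.11 (SE 0.64, limma adjusted p = 0.0192). Its lowest value, in line 1036, stood apart from the next line at -1.16.

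The H2-DO and H2-DM genes spanned a wide range. H2-Oa, the alpha chain of H2-DO, was at 1.13 and 1.33 in untreated B cells and at -3.34, -2.02 and -1.5 (lowest, median, highest) in the lymphoma lines. No line came within 2 log2 units of an untreated sample, and the difference was -3.44 (SE 0.47, limma adjusted p = 6.08e-05). Its partner H2-Ob was at 0.83 and 0.71 against -2.52, -1.48 and -0.37, a 4.52-fold lower level (limma adjusted p = 0.00133). The peptide editor's beta chain gene H2-DMb2 was at 1.15 and 1.18 against -2.59, -0.78 and -0.34 and differed by -2.19 (SE 0.46, limma adjusted p = 0.00191). H2-DMa, its alpha chain gene, was at 0.99 and 1.01 against -1.48, -0.27 and 0.18 and differed by -1.46 (SE 0.44, limma adjusted p = 0.0172). Both H2-DM genes were nearly equal in the untreated samples and spread over more than 1.5 log2 units across the lines.

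Cd74 was at 1.25 and 1.63 in untreated B cells and at -0.84, -0.33 and 1.48 (lowest, median, highest) in the lines. Line 1004 lay between the untreated samples, while the other 8 lines were at 0.32 or lower. The difference was -1.60 (SE 0.47, limma adjusted p = 0.0152). Ciita was at 0.21 and 0.18 in untreated cells and at -0.52, -0.36 and -0.02 in the lines, a difference of -0.48 (SE 0.15, limma adjusted p = 0.0265). The Ciita probe was dim, with pool signals of 68.1 to 193 intensity units outside the 2 poor arrays, and was above background in Cy5 on 20 of 24 pool arrays.

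The untreated group held 2 samples, and each slide named below held 1 of them. No share of all genes passing is at hand for the smaller fits that leave 1 untreated sample. Without either one, 6 of 10 genes still passed, and Cd74, Ciita, H2-DMa and H2-Eb2 did not. Without the 2 poor arrays 10 of 10 passed, where 21.6% of all genes passed as lower. The second probes of H2-Ab1 and H2-Ob gave -2.53 and -2.55, and both passed, while the third H2-Ob probe, near background, gave -0.13. Within the slides that held both groups, all measured members were below 0, and 4 of 8 passed in slide 2, 1 of 10 in slide 3 and 8 of 10 in slide 4.

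Markers of other cell types moved with this comparison. Of the listed markers measured, 10 of 12 macrophage, 7 of 10 dendritic cell, 7 of 8 neutrophil, 5 of 6 natural killer cell, 6 of 6 erythroid and 5 of 8 T cell genes were lower in the lymphoma lines. The summed signal of the dendritic cell list, relative to the pool, was 0.279 to 0.445 in lymphoma arrays and 1.08 to 3.05 in untreated arrays, and that of the macrophage list 0.337 to 0.775 against 1.44 to 1.57. The B cell list itself ran from 0.667 to 1.32 in lymphoma arrays and from 1.54 to 1.83 in untreated arrays. Dendritic cells and macrophages also express MHC class II, and the part of these cells in the lower class II levels was not tested. In bulk RNA, fewer cells with a transcript and less of it per cell cannot be told apart.

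**Figure D2:**
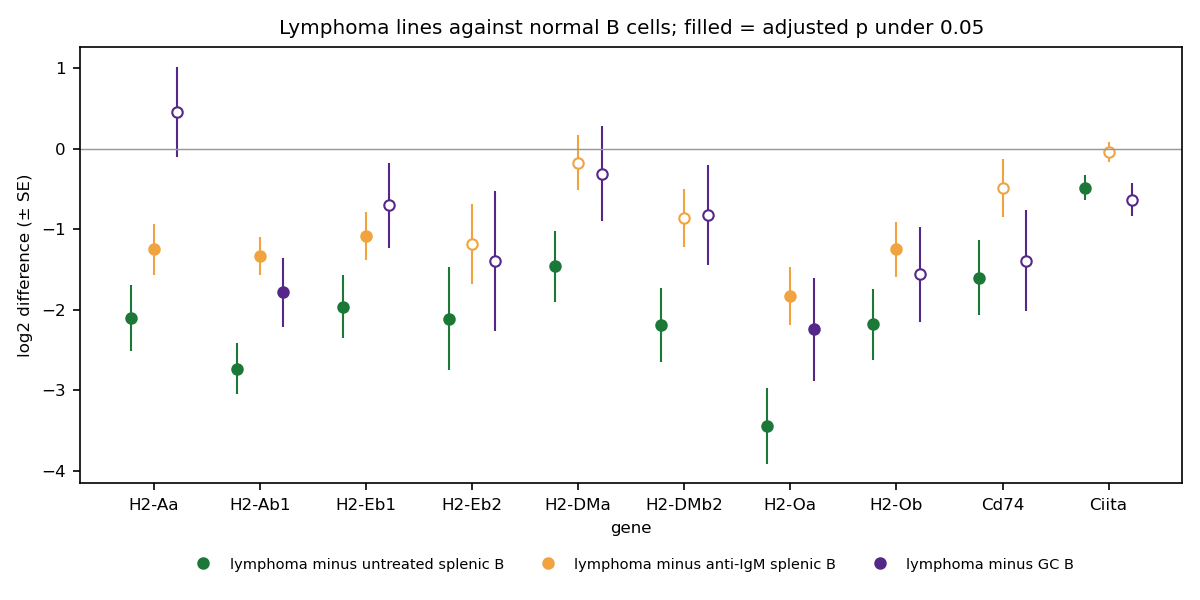
Difference between the lymphoma lines and each normal B cell group (log2, vertical axis) for each class II gene, with bars of 1 SE from limma. Filled points passed at an adjusted p under 0.05: all 10 genes against untreated splenic B cells, 5 against anti-IgM-stimulated cells and 2 against GC B cells.

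Against anti-IgM-stimulated splenic B cells, which model antigen receptor signalling, the gap was smaller and 5 of 10 genes passed as lower in the lymphomas, where 24.8% of all genes passed as lower. They were H2-Oa (-1.83, SE 0.36, limma adjusted p = 0.000832), H2-Ab1 (-1.33, SE 0.24, limma adjusted p = 0.000483), H2-Aa and H2-Ob (each -1.25, limma adjusted p = 0.00498 and 0.0073) and H2-Eb1 (-1.08, limma adjusted p = 0.00885). The lymphoma lines did not overlap the 4 stimulated samples in 3 of 10 genes (H2-Ab1, H2-Eb1 and H2-Oa), near the share of 25.3% over all genes. For H2-Eb1 the highest line was at 0.35 and the lowest stimulated sample at 0.36. In this comparison too, 10 of 12 macrophage, 7 of 10 dendritic cell, 7 of 8 neutrophil, 5 of 6 natural killer cell, 5 of 6 erythroid and 5 of 8 T cell markers were lower in the lymphomas, and their part was not tested. H2-DMa (-0.17, SE 0.34) and Ciita (-0.04, SE 0.12) had differences smaller than their errors. The stimulated mean pools 3, 6 and 24 h and both genotypes. H2-DMa was at -0.78 and -1 at 6 h, below the lymphoma mean of -0.46, but at 0.22 and 0.40 at 3 and 24 h. Its small difference is thus an average over opposite directions, not likeness at each time. Without the 2 poor arrays 7 genes passed, with H2-DMb2 and H2-Eb2 added, against 25.2% of all genes lower. Without line 1004 the count was 8, with no share of all genes at hand for that fit or for those within slides. Within slides, 1 of 8, 2 of 10 and 1 of 10 members passed in slides 2, 3 and 4.

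Against the GC B cell sample, H2-Ab1 (0.64 in GC B cells) and H2-Oa (0.03) were lower in the lymphomas, by -1.78 (SE 0.43, limma adjusted p = 0.0171) and -2.24 (SE 0.64, limma adjusted p = 0.0387). By its second probe H2-Ab1 did not pass (-1.46, SE 0.46, limma adjusted p = 0.0639). Thus 2 of 10 passed by the brightest probes, where 5.37% of all genes passed as lower. Without the 2 poor arrays Ciita joined them (-0.80, SE 0.21, limma adjusted p = 0.0177), and 8.59% of all genes passed as lower. With 1 GC B sample, the spread is borrowed from the other groups. H2-Oa lost its call with the scanner's processed signals and with the deposited value table (-2.37 in each). The smaller fits that follow have no share of all genes beside them. Leaving out line 1016, line 1019 or either untreated sample left 1 of the genes, as did slide 4 alone. Slide 2 also gave 1, but its only GC B array is the poor first one.

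Against untreated splenic B cells, 9 of the 10 genes were below 0 in the GC B sample, with a median of -1.05 against -0.02 over all genes. H2-Aa stood at -1.36 relative to the pool, on arrays 2 and 3 at -1.41 and -1.31, with its spot on the first array left out as non-uniform. Relative to the pool the other members were higher than this: Cd74 was at 1.23, H2-Ab1 at 0.64, H2-Eb2 and Ciita each at 0.35, H2-Eb1 at 0.22, H2-Ob at 0.15, H2-Oa at 0.03, H2-DMa at -0.15 and H2-DMb2 at -0.21. H2-Aa was lower in GC B cells than in untreated splenic B cells by 5.93-fold (-2.57, SE 0.65, limma adjusted p = 0.0185). It was the only 1 of the 10 to pass, where 6.92% of all genes passed as lower. Others with differences of more than 1 log2 unit did not pass: H2-DMb2 (-1.37, SE 0.73), H2-Eb1 (-1.26, SE 0.62), H2-Oa (-1.2, SE 0.74) and H2-DMa (-1.15, SE 0.68). In the same comparison 8 of 12 macrophage, 5 of 10 dendritic cell, 7 of 8 neutrophil, 5 of 6 natural killer cell, 5 of 6 erythroid and 6 of 8 T cell markers were lower in GC B cells, and their part was not tested. The call was lost with non-uniform spots kept (-2.08, limma adjusted p = 0.0526), with median centring (-1.85, limma adjusted p = 0.131) and with no normalisation (-2.02, limma adjusted p = 0.116). It was also lost without the ATMWT (-2.7, limma adjusted p = 0.0508) or the ATMKO untreated sample (-2.44, limma adjusted p = 0.0845). In slide 4 alone the difference was -2.63, but that fit reuses GC B arrays 2 and 3. It sets them, as 1 sample, against 1 ATMKO untreated sample. H2-Aa had no GC B value in slide 2. H2-Aa was the 1 member with a GC B level below the lymphoma mean, but that difference of 0.46 (SE 0.56) was within its error.

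The class II genes were lower in splenic B cells after 6 h of anti-IgM than in untreated ones. With all 4 stimulated samples set against the 2 untreated ones and genotype as a term, all 10 differences were below 0, from -0.47 for Ciita to -1.75 for H2-Oa, with a median of -1.16 against -0.04 over all genes. None of the 10 passed limma after adjustment, and neither did any of 22326 genes (0%). At an unadjusted p under 0.05, 7 of the 10 passed, against 7.55% of all genes. The summed B cell marker signal was lower in the stimulated arrays too (0.687 to 1.26, against 1.54 to 1.83 untreated), and its part in the class II values was not tested. Listed markers of other cell types had medians below 0, with none passing. These were -2.09 for erythroid, -1.28 for natural killer cell, -0.89 for macrophage, -0.73 for T cell, -0.72 for neutrophil and -0.56 for dendritic cell markers. Their part was not tested either. The comparison restricted to 6 h and untreated samples of both genotypes (4 samples) gave 10 of 10 genes lower, where 16.4% of all genes passed as lower. It counts the ATMWT sample as 6 h, as titled, although 1 line of its treatment text says 3 h. That fit estimates 3 terms from 4 samples, which leaves 1 residual degree of freedom.

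In that 6 h comparison H2-Oa differed most (-2.27, SE 0.13, limma adjusted p = 0.00243). Its levels were 1.13 untreated and -0.99 at 6 h in ATMWT, and 1.33 and -1.08 in ATMKO cells. H2-DMa went from 0.99 to -0.78 and from 1.01 to -1, a difference of -1.89 (SE 0.12, limma adjusted p = 0.00272). Both genotypes moved the same way in all 10 genes, with differences of -0.61 to -2.41, and the 2 genotypes' 6 h differences lay within 0.98 of each other. The remaining 6 h differences were -1.77 for H2-DMb2, -1.65 for H2-Eb2, -1.51 for H2-Ob, -1.47 for H2-Ab1, -1.36 for Cd74, -1.01 for H2-Eb1, -0.95 for H2-Aa and -0.62 for Ciita.

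The time course in ATMKO cells had 1 sample per time and so carries no test between times. H2-Oa was at 1.33 untreated, 0.24 at 3 h, -1.08 at 6 h and 0.35 at 24 h. H2-Ob was at 0.71, 0.48, -0.84 and 0.38, and H2-Eb2 at 1.35, 1.32, -0.74 and 0.42. These genes and the H2-DM pair had their lowest value at 6 h and were higher again at 24 h. H2-DMa was at 1.01, 0.22, -1 and 0.40, and H2-DMb2 at 1.18, 0.35, -0.76 and 0.21. The classical chains kept their 6 h level at 24 h: H2-Aa was at 1.34, 0.78, 0.15 and 0.13, H2-Eb1 at 1.69, 1.1, 0.38 and 0.36, and H2-Ab1 at 1.86, 0.52, -0.10 and -0.01. Cd74 was at 1.63, 0.88, 0.23 and 0.31, close to that second pattern. The lowest of the 3 times was 6 h for 8 of 10 genes and 24 h for H2-Aa and H2-Eb1, by 0.02 in each. The B cell marker sum in ATMKO cells was also lowest at 6 h. It was 1.54 to 1.61 untreated, 0.832 at 3 h, 0.687 and 0.706 at 6 h, and 1.26 at 24 h. The macrophage sum was 1.44 to 1.57, 0.991, 0.739 and 0.81, and 2.31. The T cell sum was also higher at 24 h (1.61) than at 6 h, while dendritic, neutrophil, natural killer cell and erythroid sums were lower. Their part in the class II course was not tested.

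**Figure D3:**
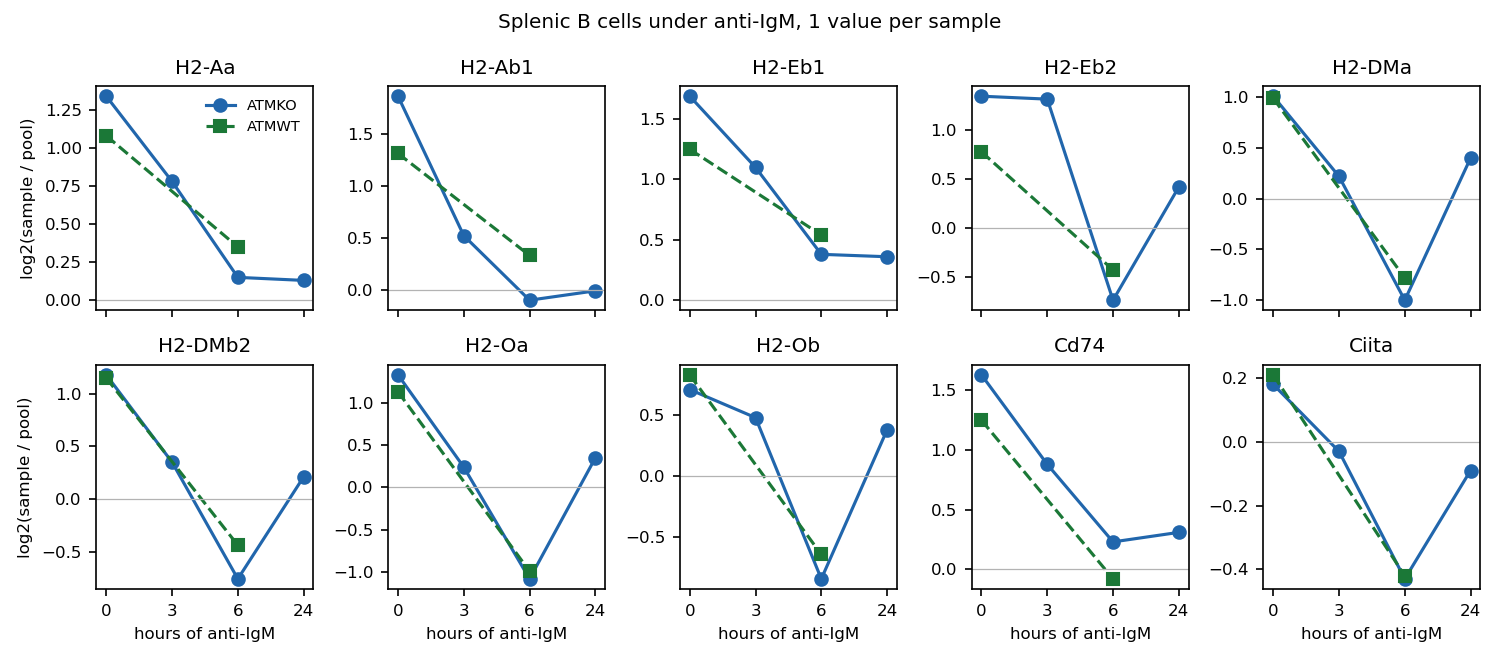
Level of each class II gene as log2 ratio to the RNA pool (vertical axes, which differ between panels) in splenic B cells after 0, 3, 6 and 24 h of anti-IgM (horizontal axis, evenly spaced), 1 point per sample, for ATMKO and ATMWT cells. H2-Oa in ATMKO cells goes from 1.33 to -1.08 at 6 h and to 0.35 at 24 h, while H2-Aa stays at 0.15 and 0.13.

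Loss of ATM itself was set apart in the same 6 splenic B samples. None of the 10 genes passed between ATMKO and ATMWT cells, and 0% of 22326 genes did. No member reached an unadjusted p under 0.05, against 0.582% of all genes. All 10 differences were above 0, from 0.11 for H2-Aa and H2-Ab1 to 0.69 for H2-Eb2 (SE 0.59), with a median of 0.29 against 0.02 over all genes. In the 4 samples at 0 and 6 h alone, 6 of 10 were above 0 and the median was 0.04. In untreated arrays the dendritic cell sum was 1.08 in ATMWT and 2.87 to 3.05 in ATMKO cells. The erythroid sum was 2.59 against 3.59 to 4.11. Neutrophil and plasma cell sums were also higher in ATMKO cells, and B, GC B and T cell sums were lower. Macrophage and natural killer cell sums overlapped, and the part of these cells was not tested.

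BTK inhibition raised the class II genes in both treated lines by 24 h. The genes with a usable spot on all 8 drug arrays were H2-Eb2, H2-DMa, H2-DMb2, H2-Oa and H2-Ob. All 5 were higher than in vehicle at 24 h, by 1.78-fold to 2.32-fold, where 11.2% of all genes passed as higher. Averaged over the 4 times, 5 of 5 were higher too, against 16.7% of all genes. Other lists moved with them. In that average, 5 of 5 dendritic cell markers measured (median 0.26) and 3 of 7 GC B markers (median 0.2) were higher. At 24 h, 6 of 8 B cell markers (median 0.75), 4 of 7 GC B markers (median 0.78) and 1 of 5 dendritic cell markers (median 0.35) were higher. Their part in the class II rise was not tested. H2-Aa, H2-Ab1, H2-Eb1, Cd74 and Ciita each lost 1 to 6 arrays to non-uniform spots, and were fitted on the arrays they had. With missing arrays allowed, 9 of 10 genes passed as higher at 24 h and Ciita did not, where 12.6% of all genes passed as higher.

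Of the 5 genes with all 8 arrays, H2-Eb2 was the first to pass, at 3 h. In line 178119 its drug over vehicle ratio was -0.03 at 1 h, 0.52 at 3 h, 1.39 at 6 h and 1.07 at 24 h on the log2 scale, and in line 28545 it was 0.13, 0.83, 1.79 and 1.36. Its mean was 0.67 at 3 h (SE 0.13, limma adjusted p = 0.0133) and 1.59 at 6 h (limma adjusted p = 7.7e-05), and both lines were highest at 6 h. It was the 1 gene of 5 to pass at 3 h, where 3.06% of all genes passed as higher, and none of the 5 passed at 1 h, where 0.0272% of all genes did. At 1 h no member had an unadjusted p under 0.05 either, against 15.7% of all genes.

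H2-DMa was at -0.06, 0.29, 0.92 and 0.97 in line 178119 and at 0.19, 0.32, 0.85 and 1.14 in line 28545. H2-DMb2 was at -0.34, -0.17, 0.98 and 0.99 and at 0.12, 0.15, 0.88 and 0.76. Both chains of H2-DM were thus up by 6 h in both lines, with means of 0.88 and 0.93 (limma adjusted p = 0.000356 and 0.00105). H2-Oa was at 0.17, 0.42, 0.26 and 0.63 and at 0.32, 0.15, 0.63 and 1.03, with a mean of 0.45 at 6 h (limma adjusted p = 0.0342) and 0.83 at 24 h (limma adjusted p = 0.00242). At 6 h, 4 of the 5 genes passed as higher, where 11.9% of all genes did.

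H2-Ob, by its brightest probe, stayed between -0.02 and 0.17 in both lines until 6 h and reached 1.16 and 1.02 at 24 h (mean 1.09, SE 0.09, limma adjusted p = 0.000115). That probe lies at 34380481 to 34380849 and the second bright one at 34382790 to 34382849 (chromosome 17, mm9). The second probe read 0.79 and 0.85 at 6 h and 1.27 and 1.42 at 24 h. Its 6 h mean of 0.82 passed (limma adjusted p = 0.000414), so both probes rose at 24 h and they disagreed at 6 h. The third H2-Ob probe was near background on the drug arrays and lay between -0.32 and 0.37.

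Among the genes with missing arrays, Cd74 had usable spots at 24 h only, at 2.01 and 1.86 (mean 1.93, SE 0.11, limma adjusted p = 0.000175). H2-Aa was at 0.91 and 1.03 at 24 h (mean 0.97, limma adjusted p = 0.000522), and H2-Eb1 at 1.18 and 1.17 (limma adjusted p = 0.00215). H2-Ab1 was at 1.01 and 1.48 by the probe fitted (limma adjusted p = 0.00202) and at 0.94 and 1.59 by the other. For H2-Aa at 24 h, these ratios set a scaled-up low scan in Cy5 against a normal scan in Cy3. Ciita was at 0.05, 0.16, 0.37 and 0.18 in line 178119 and at 0.03, 0.30 and 0.09 up to 6 h in line 28545. Its probe was above background in the vehicle channel on 1 of 8 arrays, so this ratio is poorly measured. With non-uniform spots kept, Ciita passed at 24 h (0.44, SE 0.13, limma adjusted p = 0.0388). That value includes the flagged spot of line 28545, on the array with 85.5% of spots above background, while line 178119 was at 0.18. With non-uniform spots kept, Cd74 was higher at 1 h already (1.12, SE 0.12, limma adjusted p = 0.00385) and rose further from 1 to 24 h by 0.82 (limma adjusted p = 0.0239). In both lines the 1 h spot of Cd74 was flagged and read from the scaled-up low scan in both channels. The 1 h value thus rests on flagged spots only, and no share of all genes is at hand for this setting.

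**Figure D4:**
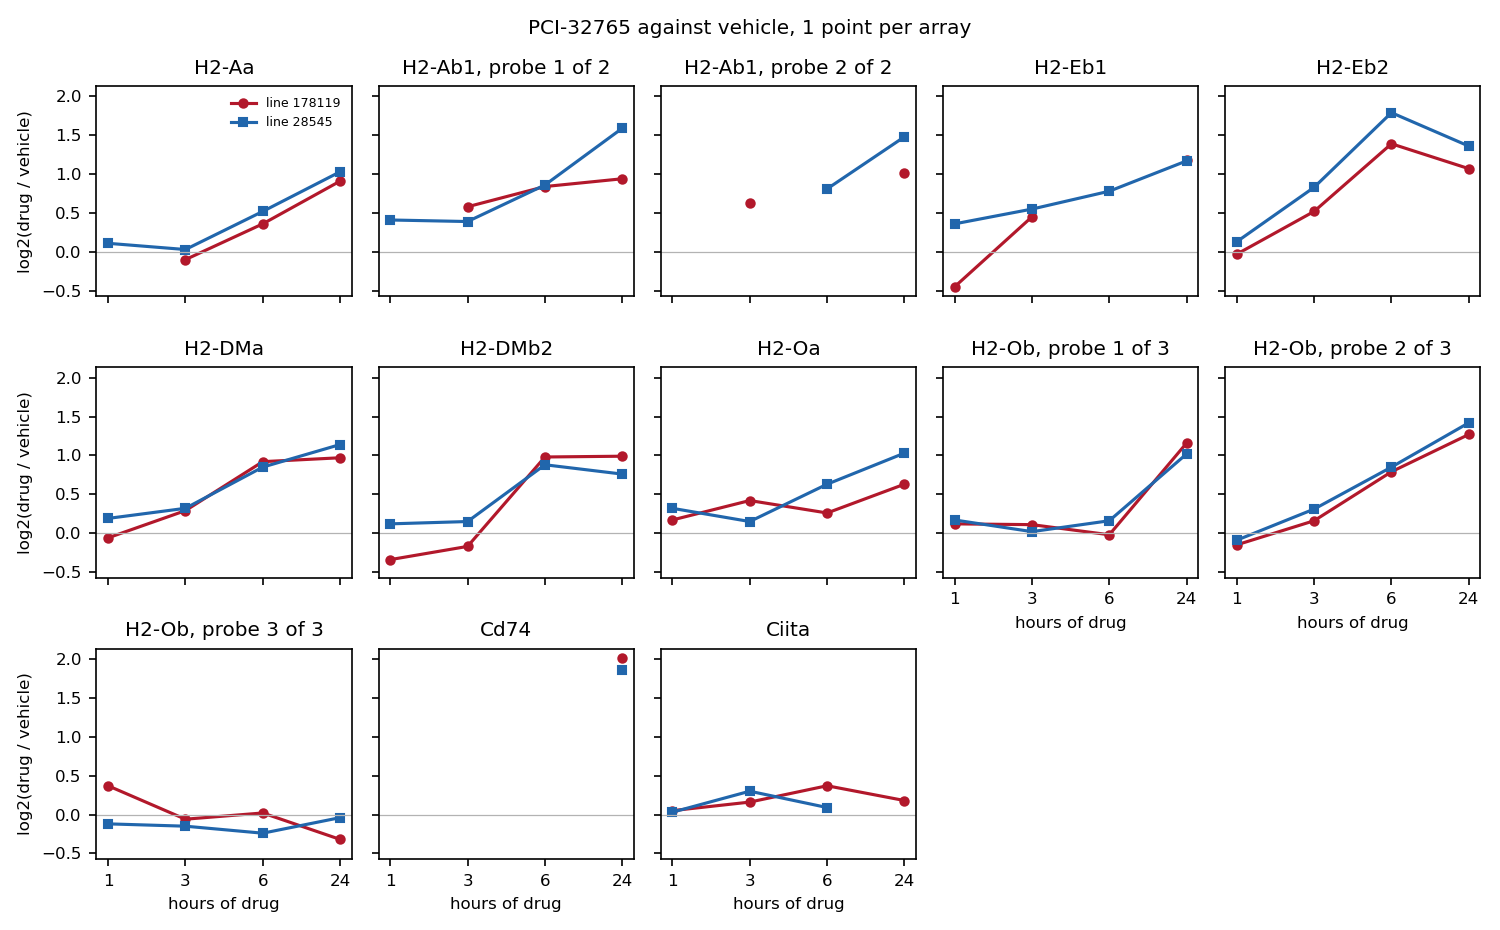
Ratio of PCI-32765 to vehicle (log2, vertical axis) at 1, 3, 6 and 24 h (horizontal axis, evenly spaced) in lines 178119 and 28545, 1 panel per probe and 1 point per array, with spots called non-uniform left out. H2-Eb2 reaches 1.39 and 1.79 at 6 h, and the brightest H2-Ob probe rises at 24 h only.

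How the early times read depends on the loess step, which removes trends of the ratio with intensity within an array. With median centring or with no normalisation in its place, 5 of 5 genes passed as higher at 1 h and at 3 h. So did most genes on the array: 61.0% at 1 h and 58.5% at 3 h with median centring, and 78.0% and 83.0% with no normalisation, so those counts say nothing about the members. From 1 to 24 h, 4 of the 5 genes rose (H2-Oa at 0.59 did not pass, limma adjusted p = 0.0892), where 3.45% of all genes did, and 0 of 5 under either of those settings, where 0.441% and 0.321% of all genes did. The 24 h rise against vehicle held under all of them. Without the 24 h array of line 28545 all 5 genes still passed at 24 h, H2-Oa at 0.63 (limma adjusted p = 0.0319), with 1 array left at 24 h that is assumed to vary as the other times do. The lines did not differ in any of the 5 genes after adjustment (0% of all genes), with differences of -0.28 (H2-Eb2, SE 0.10) to 0.00 (H2-Ob, SE 0.10). H2-Eb2 alone had an unadjusted p under 0.05, against 3.48% of all genes.

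The listed regulators and helpers of the pathway moved in both directions. Of 24 genes listed for class II transcription, 9 were lower and 2 higher in lymphoma than in untreated B cells, with a median of -0.33. Over all genes, 21.1% were lower and 14.8% higher in that comparison. Bach2, a transcriptional repressor of B cells, was lower (-4.86, SE 0.85, limma adjusted p = 0.00046), as was the B cell factor Irf8 (-3, SE 0.33, limma adjusted p = 8.39e-06). Zbtb32, which can repress Ciita, was higher (4.14, SE 0.53, limma adjusted p = 3.13e-05). The list of 25 processing and traffic genes had 8 lower and 5 higher of 23 measured, with a median of -0.26. The lower ones included Marchf1, a ligase that removes class II from the surface (-3.69), Ifi30, the lysosomal thiol reductase (-2.99), and H2-DMb1, the other H2-DM beta chain (-2.66). Of the class I presentation genes, 4 were higher and 1 lower of 22, with a median of -0.11.

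Under PCI-32765 at 24 h, 8 of the 21 measured transcription genes were higher and 1 lower, with a median of 0.21, where 11.2% of all genes were higher and 12.3% lower. Irf8 (1.25, SE 0.13, limma adjusted p = 0.000286), the interleukin 4 receptor chain Il4ra (1.21, SE 0.12, limma adjusted p = 0.000206) and Bcl6 (0.94, SE 0.10, limma adjusted p = 0.000411) had the largest rises. Irf4, a factor induced by B cell receptor signalling, was lower already at 3 h (-1.17) and at 6 h (-1.52, limma adjusted p = 6.03e-05). Of 18 processing genes, 7 were higher and 1 lower (median 0.18), led by the proteases Lgmn (0.81) and Ctsd (0.76) and by H2-DMb1 (0.76). Of 18 class I presentation genes, 1 was higher and 2 lower, with a median of -0.02, and the lists were not tested against each other.

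The lymphoma lines were ordered alike in most class II genes. Line 1036 had the lowest value for 9 of the 10 genes, and line 1004 the highest for 7. The same lines were at the ends of the summed B cell marker signal relative to the pool, with 0.667 and 1.32, and line 1004 had the highest class I sum (1.67). Line 1004 was on slide 2 and line 1036 on slide 3. By the 10-gene mean, lines 1016, 1019 and 1036 of slide 3 (-1.39, -1.13 and -1.95) lay below lines 1001, 1004, 1007 and 1010. Those were on slide 2 (-0.76 to -0.12), with repeats of 1001 and 1010 on slide 4. Line 1013 of slide 3 was at -0.5, and line and slide cannot be told apart here. Repeat arrays of lines 1001 and 1010 and GC B arrays 2 and 3 differed by at most 0.41 in any member (median 0.11), which is technical spread only, and the SD over the 9 lines was 0.19 to 0.91 without the 2 poor arrays. Across the 9 lines, H2-Ab1 had a Pearson r of 0.90 with H2-Eb1, 0.85 with H2-Aa, 0.83 with H2-DMb2, 0.82 with H2-DMa, 0.70 with Cd74 and 0.66 with H2-Eb2. The H2-DO chains and the regulator followed it less across the lines: r was 0.29 for H2-Ob, 0.05 for H2-Oa and 0.02 for Ciita. The dim Ciita probe had an SD of 0.19 over the lines, while repeats of line 1001 differed by 0.27. Its r across the lines is thus poorly measured. Over all 16 samples, r with H2-Ab1 was 0.85 for H2-Oa, 0.83 for H2-Ob and 0.61 for Ciita. These values describe 9 lines or 16 samples that share the pool, exclude the 2 poor arrays and carry no test.

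Line 1007 shows how H2-Oa and H2-Ab1 could part across the lines. It had the highest H2-Ab1 of the 9 lines (-0.49) and the lowest H2-Oa (-3.34). Without the 2 poor arrays, line 1039 had H2-Oa at -3.42. Over all 16 samples without those arrays, the genes most like the mean of H2-Aa, H2-Ab1, H2-Eb1 and Cd74 were Ifnl3 (r = 0.952), Ifi30 (0.933), A330023F24Rik (0.923), H2-DMb1 (0.921) and Wdfy1 (0.92). With all arrays, Ifi30 and H2-DMb1 were not among the first 5, and Ifnl3 was at 0.927. For Ciita the first was Nsmaf, at 0.888 with all arrays and 0.91 without the 2. The samples share the pool and fall into the study's groups, so these r values carry no test.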

How the data were processed

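Of 32 two-colour Agilent arrays on 4 slides, 24 compared a sample with the pool and 8 compared drug with vehicle. The authors deposited scanner output, per the file headers from Agilent Feature Extraction 10.1.1.1 (9.1 per the submitters' processing notes), with spot intensity in each channel. Their deposited value table holds the log10 ratio of the scanner software, equal to it within 5e-04. From the deposited intensity values, log2 ratios were computed here in R 4.3.3 with limma 3.58.1 (normexp with offset 50, then loess). Control spots and spots flagged non-uniform were left out. A probe had to be well above background in either channel on a share of at least 0.5 of arrays. The brightest probe with a value in every sample stood for a gene, and repeat arrays were averaged. Fits used lmFit and eBayes, with adjusted p under 0.05 over all genes as the threshold: 16 reference samples (4 group means, 12 residual degrees of freedom), 6 splenic B samples (3) and 8 drug arrays (4). The splenic fit pooled the times of stimulation, and the reference fit pooled times and genotypes within its stimulated and untreated groups. Steps were tested on simulated data. Probe coordinates are those of the files (mm9) and promoters those of RefSeq (GRCm38.p6). The number of arrays limits precision.

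The members and gene lists were chosen with earlier results of these data known. Named genes are all members, up to 3 per list and comparison with the largest change among those passing, and the 5 most like Ciita or the class II mean. Alternatives covered background correction, normalisation, filters, repeats, slides and leaving out each sample.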

Additional observations from a re-analysis of the deposited data

Results flagged for a closer look

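Of 20 groups of 4 to 10 samples tested with Dixon's criterion, in which chance flags about 1 in 20, 2 had a sample far from the others, both among the 9 lymphoma lines. H2-Eb2 in line 1036 was at -3.38 relative to the pool, with the next line at -1.16, a gap of 0.68 of the group's range. Cd74 in line 1004 was at 1.48, with the next line at 0.32, a gap of 0.5 of the range. Line 1036 was the lowest line for 9 of 10 class II genes and line 1004 the highest for 7. Each rests on 1 array, that of line 1036 on slide 3 and that of line 1004 on slide 2.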

How the results depend on the processing

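Counts below are members passing, without the share of all genes beside them. They show how the calls vary with the processing, not how the members compare with all genes. For lymphoma against untreated and GC B cells, processing steps that lost Cd74, Ciita or H2-Oa are named above. Lymphoma against untreated gave 10 of 10 and 6 to 10 over samples left out, and 4 and 1 within slides 2 and 3. Lymphoma against anti-IgM gave 5, with 5 to 8 over samples left out and 1, 2 and 1 within slides 2, 3 and 4. Lymphoma against GC B cells gave 2, with 1 to 3 over samples left out, 5 with arrays as samples in a random block, and 1 with only the first repeat or within slide 2 or 4. GC B cells against untreated gave 1, with 0 to 1 over samples left out. It gave 0 with median centring, no normalisation, non-uniform spots kept, the first repeat only, the slide as a block or slide 2, and 2 with the random block or slide 4. H2-Aa, the gene called, has no value on the first GC B array, so it was not tested with the first repeat only, either block or slide 2. Slide 4 alone sets 1 GC B sample against 1 ATMKO untreated sample. Anti-IgM against untreated gave 0, and 10 at 6 h only.

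For the drug, median centring and no normalisation both gave 5 at 1 h and 5 at 3 h, and 0 from 1 to 24 h. The scanner's processed signals and the deposited value table both gave 0 at 3 h and 2 from 1 to 24 h. With non-uniform spots kept (an alternative chosen after seeing the data, as were the next and the fits without 2 arrays), counts were 10 for the mean of 4 times, 1 at 1 h, 2 at 3 h, 8 at 6 h, 10 at 24 h and 7 from 1 to 24 h. With missing arrays allowed they were 7 at 6 h and 9 at 24 h. Leaving out 1 array gave 5 to 7 for the mean, 0 to 1 at 3 h, 3 to 6 at 6 h, 5 to 7 at 24 h and 3 to 5 from 1 to 24 h. H2-DMb2 reversed at 1 h and 3 h, from -0.11 and -0.01 to 0.545 and 0.670 with median centring and to 0.910 and 1.1 with no normalisation. The line as a replicate block changed no count, with 0 at 1 h, 1 at 3 h, 4 at 6 h, 5 at 24 h, 4 from 1 to 24 h and 5 for the mean. The causes of these changes were not tested, apart from the larger or smaller sets of arrays named. No dye swap was made, so a dye effect stays in the drug ratios. The Ciita probe was above background in vehicle on 1 of 8 drug arrays.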
